A study of Mus musculus with 3 samples.

Results

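The genes of MHC class II antigen presentation were followed in spleens that carried islet grafts, on day 0, day 2 and day 139 after transplantation. The genes were chosen by name, as H2-Aa, H2-Ab1, H2-Eb1, Cd74, Ciita, H2-DMa, H2-DMb2, H2-Oa, H2-Ob and Ctss. These 10 genes, of 34797 gene names on the array, had 13 of its 55681 probes. Of these probes 12 were well above background on all 3 arrays, so that all 10 genes were measured. One of the probes of H2-Ob was not well above background on any array and is given no ratio. The signal was highest on day 139 in all 10 genes, by less than the measurement error in Ctss. H2-Ob, H2-DMb2, H2-Oa and H2-DMa were between 1.82-fold and 2.44-fold higher on day 139 than on day 0, whereas the protease gene Ctss differed by 1.02-fold. On day 2 the transactivator gene Ciita was 3.03-fold lower than on day 0.

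All recipients were male C57BL/6 mice (C57BL/6J in the labels) with diabetes induced by streptozotocin (180 mg/kg), and were given 25 syngeneic islets in the spleen with a further 100 under the capsule of the kidney (SP25+KC100). Spleen RNA came from day 0, immediately after transplantation (Sample 1), from day 2 (Sample 2), and from day 139, after removal of the kidney with the capsular graft on day 100 (Sample 3). The labels name the capsular graft among the characteristics of Sample 3 only, while the protocol and the study's methods give it for all 3 samples. The methods give an age of 8 to 16 weeks for the mice, and no age for each sample. This range cannot hold at harvest for Sample 3, because 139 days are longer than 16 weeks. There was 1 array for each day, and the number of mice behind an array is not given in the sources used here. Time after grafting, age, nephrectomy and differences between single mice therefore cannot be told apart, and values describe these arrays. RNA of the whole spleen was measured, so that fewer cells of a type and less RNA per cell cannot be told apart.

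MHC class II molecules display peptides from internalized proteins to CD4 T cells, and are made mainly by B cells, dendritic cells and macrophages, all of them abundant in the spleen. An alpha and a beta chain pair in the endoplasmic reticulum around the invariant chain (Cd74), which blocks the groove and directs the complex to endosomes. There proteases such as cathepsin S (Ctss) trim the invariant chain to the fragment CLIP, and the DM molecule (H2-DMa with H2-DMb1 or H2-DMb2) exchanges CLIP for peptide. The DO molecule (H2-Oa with H2-Ob) restrains DM, chiefly in B cells. The coactivator encoded by Ciita does not bind DNA itself, but docks on the factors assembled at the X and Y boxes of class II promoters. C57BL/6 mice carry the H-2b haplotype, which makes I-A from H2-Aa and H2-Ab1 but lacks a functional alpha chain for I-E, the partner of H2-Eb1.

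Promoters of the genes are shown because Ciita acts through them. RefSeq promoters (GRCm38.p6) were matched by symbol for 7 of the 10 genes, with 8 promoters, and not for H2-Ab1, Cd74 and Ciita. The 5 promoters below hold AAC followed by TGATTGG, which begins 26 to 29 bases after AAC. They are the 130 bases before the start site of each gene, 5′ to 3′ on the strand of the gene, with capitals for GCAAC or AACNNATG, letters like those of the X box, and for TGATTGG, letters like those of the Y box.
H2-Aa: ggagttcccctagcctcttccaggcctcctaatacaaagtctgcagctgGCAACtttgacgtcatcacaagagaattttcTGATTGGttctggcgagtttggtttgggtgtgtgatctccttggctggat
H2-Eb1: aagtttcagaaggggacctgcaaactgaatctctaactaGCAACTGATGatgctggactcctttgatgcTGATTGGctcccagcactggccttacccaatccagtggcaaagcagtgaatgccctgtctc
H2-DMb2: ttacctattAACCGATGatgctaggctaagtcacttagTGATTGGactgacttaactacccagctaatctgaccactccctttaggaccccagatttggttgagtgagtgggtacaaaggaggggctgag
H2-Oa: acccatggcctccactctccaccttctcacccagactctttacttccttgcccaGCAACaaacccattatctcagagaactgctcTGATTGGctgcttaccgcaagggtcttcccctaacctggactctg
H2-Ob: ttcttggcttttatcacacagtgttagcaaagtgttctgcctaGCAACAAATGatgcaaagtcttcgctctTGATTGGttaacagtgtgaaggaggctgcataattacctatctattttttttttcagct
H2-Aa lies on the minus strand at chr17:34287824-34287953, and the other promoters lie on the plus strand. They are chr17:34305737-34305866 for H2-Eb1, chr17:34145119-34145248 for H2-DMb2, chr17:34092249-34092378 for H2-Oa and chr17:34238775-34238904 for H2-Ob. TGATTGG began 50 bases before the start in H2-Aa, 61 in H2-Eb1, 92 in H2-DMb2, 45 in H2-Oa and 59 in H2-Ob.

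The letters were searched on both strands in the 250 bases before each start. AAC with TGATTGG at this distance was found in 130 of 32851 promoters, or 0.396%. The letters of this pair, like GCAAC, AACNNATG and TGATTGG, were chosen after the promoters of these genes had been read, so that their presence here is a description. TGATTGG alone was found in 7.23% of all promoters, GCAAC in 29.9% and AACNNATG in 7.71%. GCAAC and AACNNATG can overlap in AAC, and TGATTGG contains ATTGG. The longer core of the X box was found in 0.816% of all promoters and in those of H2-Eb1 and H2-Oa. In H2-Oa this core began 141 bases before the start, outside the stretch shown, and is another site than the GCAAC in capitals, which began 76 bases before the start. The Y box core ATTGG was found in 33.8% of all promoters and in 6 of the 8 of these genes. Both cores in order, with ATTGG from 15 to 25 bases after the X core, were found in 6 promoters, or 0.0183%, among them that of H2-Eb1. A match of letters is no measurement of a bound factor.

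**Figure D1:**
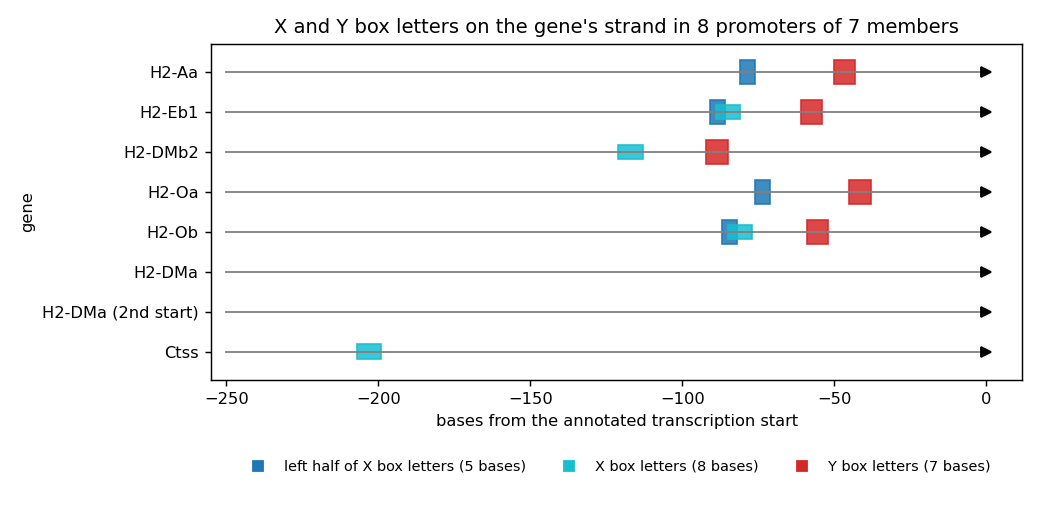
Positions of X box letters (blue, cyan) and Y box letters (red) on the strand of the gene in 8 promoters of 7 genes, in bases from the annotated start (x axis), with 1 line for each promoter. In H2-Aa, H2-Eb1, H2-DMb2, H2-Oa and H2-Ob the AAC within the X box letters begins 26 to 29 bases before TGATTGG.

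The signals below are intensities of 1 probe after quantile normalization over the 3 arrays, and are not compared between genes, because probes differ in how well they bind. A gene was called higher with a ratio of at least 1.5 and lower with a ratio of at most 0.66. A Z-score sets the log2 ratio against the SD over the 1000 probes of most similar mean signal, and the stricter criteria of the study add a Z-score of at least 2 or at most -2. The error given is the estimate of the scanner software for the spots, carried to the log2 ratio. It was 0.20 for 9 of the 10 class II genes and up to 0.22 for Ciita, and covers neither the labeling nor the mice. Where a gene had several probes, the brightest was used for counts.

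The array annotation places the probes on mm9, without an exon or UTR. Of the 10 genes, 7 lie within 221.1 kb of chromosome 17, in the MHC. From low to high coordinate their probes are those of H2-Oa (34232033 to 34232092), H2-DMa (34274300 to 34274863), H2-DMb2 (34284764 to 34284823), H2-Ob (34380481 to 34380849), H2-Ab1 (34406296 to 34406355), H2-Aa (34421285 to 34421344, minus strand) and H2-Eb1 (34453075 to 34453134). The probes of H2-DMa and H2-Ob span 564 and 369 bases of the genome, more than their length of 60 bases, so that they cross a splice junction. Outside the MHC lie Ctss (chromosome 3, 95360245 to 95360304), Ciita (chromosome 16, 10526568 to 10526627) and Cd74 (chromosome 18, 60972075 to 60972132).

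The classical chains were brighter on day 139 than on both earlier days. H2-Aa, the alpha chain of I-A, had signals of 10794, 8960 and 16221 in the order of the samples, as in all sentences that follow. Its log2 ratio was 0.59 over Sample 1 (Z-score 1.02) and 0.86 over Sample 2 (ratio 1.81, Z-score 1.56). The difference between Samples 1 and 2, -0.27, was close to the error of 0.20. H2-Ab1, the beta chain of I-A, had signals of 96907, 102528 and 128812. Its log2 ratios were 0.41 over Sample 1 and 0.33 over Sample 2, and neither reached the ratio limit. A second probe of H2-Ab1 (34406305 to 34406363), which shares a run of 41 of 60 bases with the first, had signals of 87072, 92472 and 130603. It gave a log2 ratio of 0.58 over Sample 1, just outside the limit of 1.5 that H2-Aa just passed. Both probes of H2-Ab1 thus placed Sample 3 highest, at somewhat different distances.

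H2-Eb1, the beta chain of I-E, was the one classical chain past the lower ratio limit on day 2. Its signals were 77080, 50280 and 106007, with the lowest value on day 2, as for H2-Aa. On day 2 it was lower than on day 0, with a log2 ratio of -0.62 (ratio 0.652, Z-score -1.90). With scaling to the 75th percentile this log2 ratio was -0.59, no longer past the limit. On day 139 it was 2.11-fold higher than on day 2 (Z-score 2.65) and 1.38-fold higher than on day 0 (Z-score 1.09). The first of these ratios passed the stricter criteria. Cd74, the invariant chain, had signals of 44097, 50362 and 66673, in the order of the days. Its log2 ratio was 0.60 over Sample 1 (ratio 1.51) and 0.40 over Sample 2 (ratio 1.32).

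**Figure D2:**
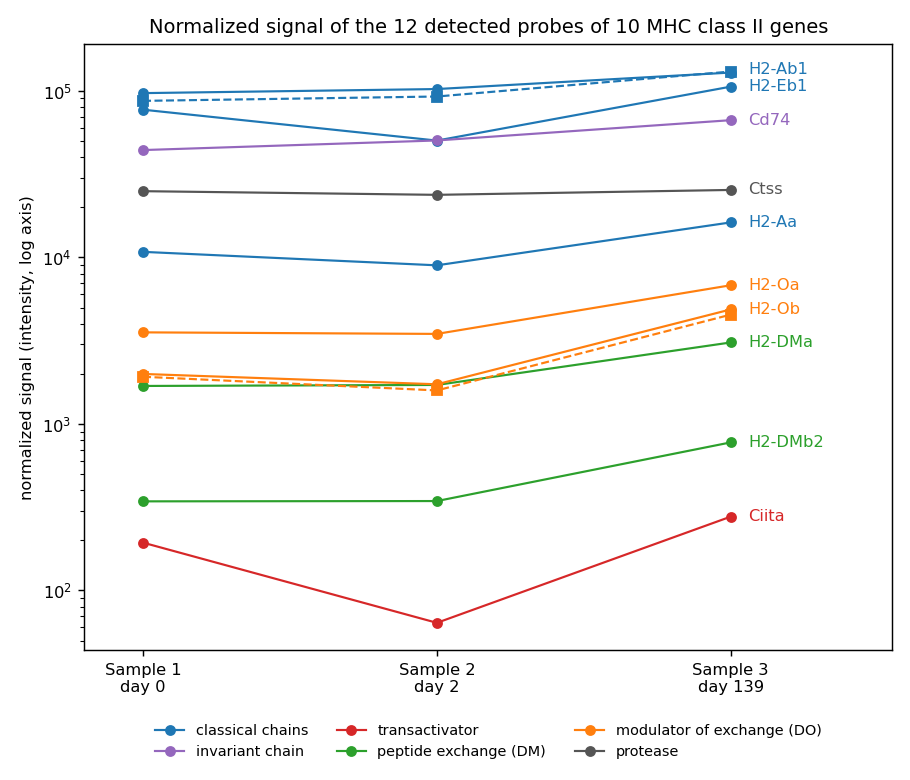
Normalized signal (intensity, log axis) of the 12 detected probes of the 10 genes in Samples 1, 2 and 3, with 1 point for each array and colors for roles; dashed lines with squares are second probes of H2-Ab1 and H2-Ob. Most lines are nearly flat from day 0 to day 2 and highest on day 139. Ciita and H2-Eb1 pass the lower ratio limit on day 2, and Ctss is flat throughout.

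The genes of peptide exchange had almost equal signals on days 0 and 2 and higher signals on day 139. H2-DMa, the alpha chain of DM, had signals of 1690, 1713 and 3084. Sample 3 was 1.82-fold above Sample 1 and 1.80-fold above Sample 2. H2-DMb2, 1 of the genes for the beta chain of DM, had signals of 343, 344 and 774. Sample 3 was 2.26-fold above Sample 1 (Z-score 1.81) and 2.25-fold above Sample 2 (Z-score 1.82). Between days 0 and 2 the log2 ratio was 0.02 for H2-DMa and 0.01 for H2-DMb2, within the error. The paralog H2-DMb1 had signals of 12565, 13721 and 18080, and at 1.44-fold over Sample 1 it was below the limit. The longest run of bases that the probes of H2-DMb1 and H2-DMb2 share is 5, so that they read different stretches.

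The genes of DO, the modulator of DM, were also higher on day 139. H2-Oa, its alpha chain, had signals of 3546, 3471 and 6803, with a ratio of 1.92 over Sample 1 and 1.96 over Sample 2. H2-Ob, its beta chain, had signals of 1995, 1729 and 4870. Sample 3 was 2.44-fold above Sample 1 (Z-score 2.21) and 2.82-fold above Sample 2 (Z-score 2.51). H2-Ob was the only one of the 10 genes past the stricter criteria against both earlier samples. It lost both calls when 1 SD over all probes was used for the Z-score. A second probe of H2-Ob (34382790 to 34382849) had signals of 1919, 1588 and 4533, and log2 ratios of 1.24 and 1.51 beside 1.29 and 1.49 for the brighter probe. Those probes lie apart in the gene and differed by less than the error.

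Ciita, the transactivator, was the member that differed most between days 0 and 2. Its signals were 194, 63.9 and 278. The log2 ratio of Sample 2 over Sample 1 was -1.60, with an error of 0.22 and a Z-score of -2.86. Sample 3 was 4.34-fold above Sample 2 (Z-score 3.32) and 1.43-fold above Sample 1 (Z-score 0.85). Both ratios against Sample 2 passed the stricter criteria, and the ratio of Sample 3 over Sample 1 did not reach the limit. Ciita rests on 1 probe, and with another background correction the log2 ratio of Sample 2 over Sample 1 was -0.99. Ctss, the protease of the last step of invariant chain cleavage, had signals of 24980, 23744 and 25408. Its log2 ratios of 0.02 over Sample 1 and 0.10 over Sample 2 were within the error of 0.20.

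**Figure D3:**
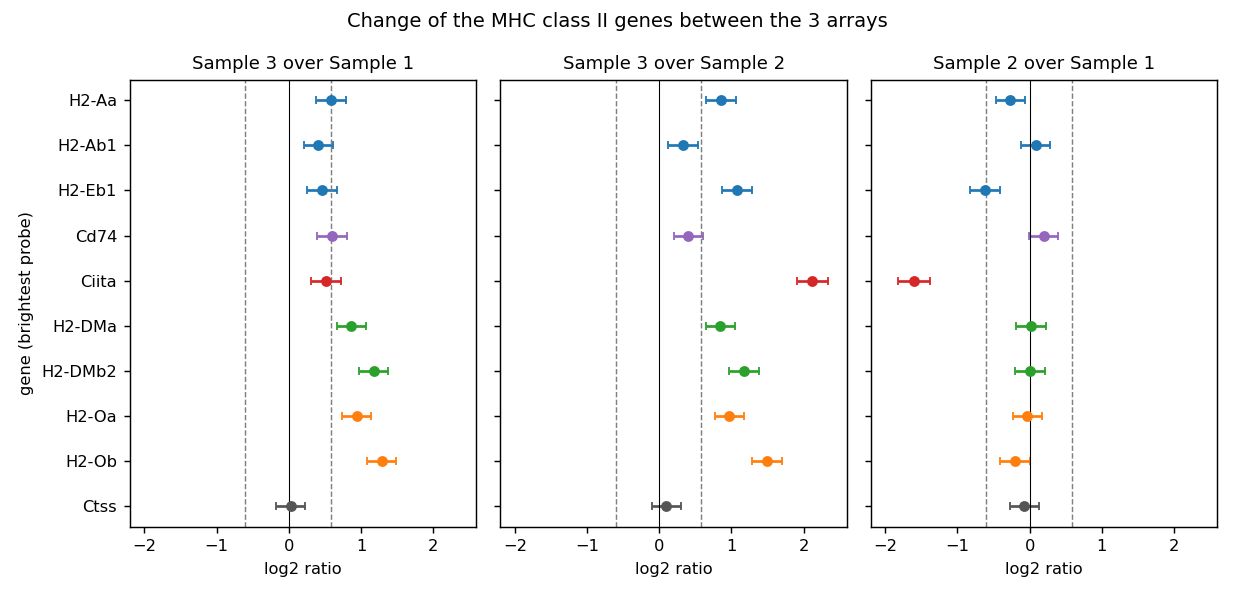
Log2 ratios of the 10 genes in the 3 comparisons, with bars for the error of the scanner software and dashed lines at the ratio limits of 1.5 and 0.66. For Sample 3 over Sample 1 all points lie above 0, from 0.02 for Ctss to 1.29 for H2-Ob, and for Sample 2 over Sample 1 Ciita lies lowest at -1.60.

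For Sample 3 over Sample 1, 6 of the 10 genes were higher by the ratio limit (H2-Aa, Cd74, H2-DMa, H2-DMb2, H2-Oa and H2-Ob), beside 13.6% of the 22851 genes with a detected probe. None was lower, beside 13.7% of all genes. By the stricter criteria 1 gene, H2-Ob, was higher, beside 3.00% of all genes, and 0 were lower, beside 2.45%. The median log2 ratio of the 10 genes was 0.59, and that of all genes was -0.00347 with an SD of 0.85. The difference from 0 was more than 2 times the error in 9 of the 10 genes, all but Ctss. The error was nearly the same for all 10 genes, so that this acts much like a fixed limit on the ratio. H2-Ab1 (0.411, error 0.204) was just past it, and the share of all genes past it was not computed. For Sample 3 over Sample 2, 7 genes were higher by the ratio limit (H2-Aa, H2-Eb1, Ciita, H2-DMa, H2-DMb2, H2-Oa and H2-Ob), beside 12.8% of all genes, and 0 were lower, beside 13.5%. Of these, H2-Eb1, Ciita and H2-Ob also passed the stricter criteria, beside 2.80% of all genes, and 0 were lower by them, beside 1.96%. The median was 0.91, beside -0.03 for all genes. The difference from 0 was more than 2 times the error in 7 genes, again without a computed share of all genes. These comparisons share Sample 3.

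For Sample 2 over Sample 1, the 10 genes were near the middle of all genes. Their median log2 ratio was -0.05, beside 0.02 for all genes, with 4 genes above 0 and 6 below. No gene was higher by the ratio limit, beside 9.94% of all genes. H2-Eb1 and Ciita were lower, beside 9.87% of all genes, and Ciita alone passed the stricter criteria, beside 2.88%. By these criteria 0 genes were higher, beside 2.20% of all genes. The difference from 0 was more than 2 times the error in 2 of the 10 genes, and the share of all genes past it was not computed.

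Some of these probes were bright enough for quantile normalization to bound their ratios. This procedure gives each rank on an array the same value, so that a probe near the top can gain only by passing the few probes above it. On every array H2-Ab1 and H2-Eb1 were within the brightest 1% of the 55679 probes. H2-Ab1 had ranks 189, 170 and 102, and at the very top it could have been at most 4.41-fold above Sample 1. The limit was 5.55-fold for H2-Eb1, which had ranks 278, 490 and 162, and 9.69-fold for Cd74, which had ranks 564, 489 and 341. None of the 3 genes reached these limits, and no gene spot was saturated. Scaling each array to its 75th percentile, which sets no such limit, gave log2 ratios over Sample 1 of 0.57 for H2-Ab1 in place of 0.41, 0.60 for H2-Eb1 in place of 0.46 and 0.68 for Cd74 in place of 0.60. H2-Eb1 then passed the ratio limit, and 7 genes in place of 6 were higher. In the dimmer genes the scaling mattered less for Sample 3 over Sample 1, and H2-DMb2 gave 1.18 with both. Over Sample 2 the dimmer H2-Aa moved too, from 0.86 to 0.75, beside 0.33 to 0.41 for H2-Ab1 and 1.17 to 1.18 for H2-DMb2.

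**Figure D4:**
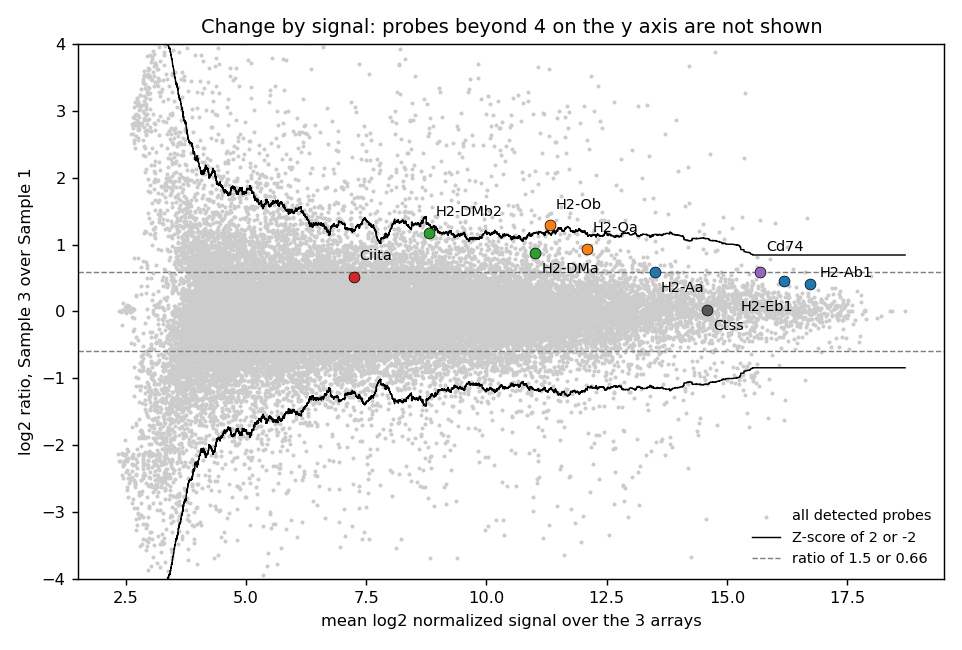
Log2 ratio of Sample 3 over Sample 1 (y axis) against the mean log2 normalized signal over the 3 arrays (x axis) for detected probes (gray), with the 10 genes labeled and lines at Z-scores of 2 and -2 and at the ratio limits. The spread of the gray points is narrower at the bright end, where H2-Ab1, H2-Eb1 and Cd74 lie, and of the 10 genes H2-Ob alone lies above the Z-score line.

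The other genes of the pathway were taken from a list of 40, of which 37 were on the array by name (not Spi1, Sppl2a and H2-Ea) and 36 were detected. H2-Ea-ps, the inactive gene of the I-E alpha chain, was not well above background on any array. For Sample 3 over Sample 1, 10 of the 36 were higher, beside 13.6% of all genes, and 0 lower, beside 13.7%. The median log2 ratio was 0.16. For Sample 3 over Sample 2, 12 were higher, beside 12.8%, and 0 lower, beside 13.5%, with a median of 0.40. For Sample 2 over Sample 1, 1 was higher, beside 9.94%, and 4 were lower, beside 9.87%, with a median of -0.17.

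Among the class II chains, H2-Eb2 had signals of 484, 400 and 1037, and was 2.14-fold higher in Sample 3 than in Sample 1. Of 17 detected genes of transcription and its signals, 4 were higher over Sample 1, beside 13.6% of all genes. Rfx5, a subunit of the factor that binds the X box, had signals of 12.1, 21.4 and 37.0, with an error of 0.40 for Sample 3 over Sample 1. Sample 1 was not well above background for Rfx5. With the lowest signal well above background in Sample 1 in place of that of Rfx5, Sample 3 was 2.85-fold and Sample 2 1.65-fold higher. Irf8, a factor of B cells and dendritic cells, had signals of 9936, 9043 and 15366 (ratio 1.55 over Sample 1). Irf4, a factor of activated B cells and plasma cells, had 475, 436 and 1139 (ratio 2.40). The cytokine gene Il10 was dim, with 31.1, 19.1 and 55.4 (ratio 1.78 over Sample 1, error 0.27 on the log2 scale). It was lower in Sample 2 than in Sample 1, with a log2 ratio of -0.70, an error of 0.34 and a Z-score of -0.98. The interferon gamma gene Ifng had signals of 148, 119 and 207, and was higher over Sample 2 alone, by 1.75-fold.

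Of 8 detected genes of proteases and processing, Ctsh was the one higher over Sample 1, beside 13.6% of all genes. The median log2 ratio of the 8 genes over Sample 1 was -0.17, with 2 of them above 0. Ctsh had signals of 9997, 11215 and 19016 (ratio 1.90). Ctsz, another cathepsin, had 10667, 5683 and 12015, and like Ciita was lowest on day 2 (ratio 0.533 over Sample 1). March1, a ubiquitin ligase that removes class II molecules from the surface, had 2539, 1539 and 3160, with the same order of days. Cd83, which opposes March1, had 4289, 4252 and 7021. Of 6 detected costimulators and readers of class II, 3 were higher over Sample 1, beside 13.6% of all genes, and 0 lower. The log2 ratio was above 0 in 4 of the 6, with a median of 0.48. Of those called higher, Cd40 had signals of 774, 877 and 1551, and the coreceptor gene Cd4 had 1455, 1949 and 2910. Lag3, an inhibitory receptor for class II, had 263, 166 and 442, and was lower in Sample 2 than in Sample 1.

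Marker genes of the cells that carry class II molecules moved with these results in part. For Sample 3 over Sample 1, 13.6% of all genes were higher and 13.7% lower. All 12 B cell markers were detected, and 10 were higher and 0 lower for Sample 3 over Sample 1, with a median log2 ratio of 1.07. Their summed signals were 55412, 55740 and 105768, with Sample 3 highest. Of 10 dendritic cell markers, 2 were higher and 1 lower, with a median of 0.04 and sums of 88357, 83427 and 80765. Most of this sum was Siglech, and without it the other 9 markers summed to 12077, 10804 and 15830, a choice made after seeing the data. The dendritic cell marker called lower, Itgae, was not well above background in Sample 3. With the lowest signal well above background there in its place, the ratio was 0.69, not past the limit. Of 13 detected macrophage markers, 2 were higher and 2 lower, with a median of 0.02 and sums of 141588, 148557 and 134416. Among T cell markers, which mark cells that read class II molecules, 8 of 9 detected were higher, with a median of 0.88 and sums of 13574, 17671 and 24603.

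For Sample 2 over Sample 1, where Ciita was lower, 1 B cell marker was higher and 0 lower, with a median of 0.05. Of all genes, 9.94% were higher and 9.87% lower in that comparison. Of the dendritic cell markers 0 were higher and 1 was lower, with a median of -0.04. Of the macrophage markers 4 were higher and 1 lower, with a median of 0.21. Single markers ranged more widely than these medians. Spic, a factor of red pulp macrophages, had a log2 ratio of -1.72, beside -1.60 for Ciita, and the dendritic cell marker Cd209a had -0.68. The macrophage marker Vsig4 went the other way and further, with a log2 ratio of 3.62. Markers of other cells differed on day 139 too, where 13.6% of all genes were higher over Sample 1 and 13.7% lower. The median over Sample 1 was 1.26 for 7 detected plasma cell markers, with 6 higher, -0.52 for 10 erythroid markers, with 4 lower, and -0.90 for 6 detected beta cell markers, with 4 lower. The beta cell genes Pdx1 and Slc2a2 were not well above background on any array. Among the beta cell markers called lower, G6pc2 and Nkx6-1 were not well above background in Sample 3. With the lowest signal well above background there in their place, the ratios were 0.48 and 0.77, and Nkx6-1 was not past the limit. The part of the makeup of the spleen in the values of the class II genes was not tested.

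**Figure D5:**
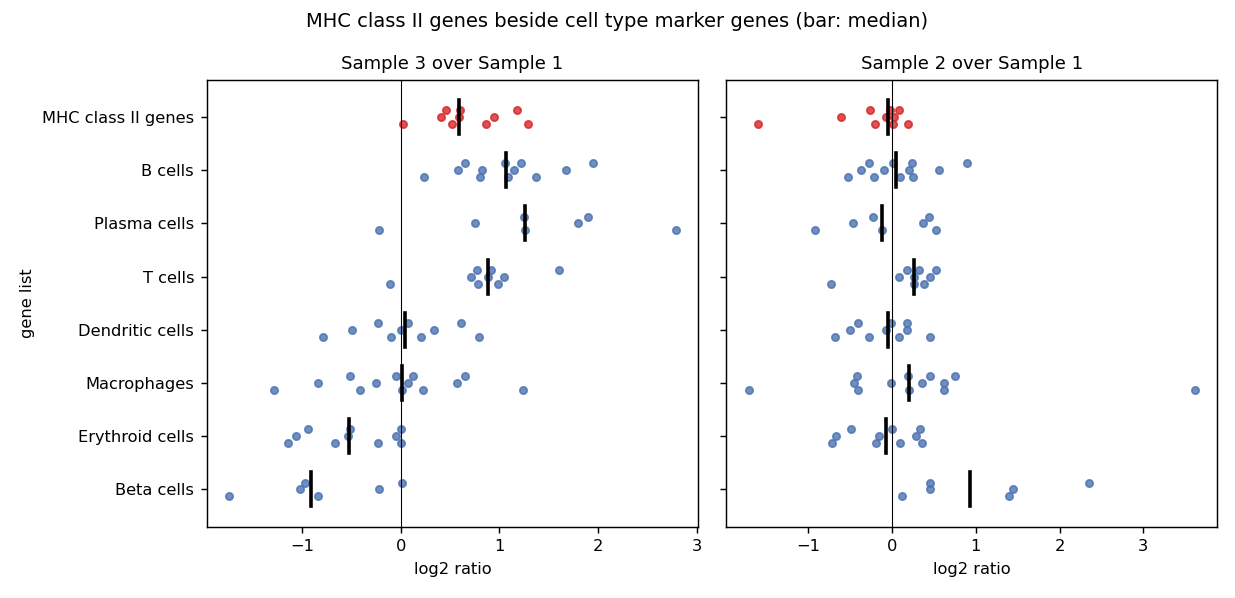
Log2 ratios (x axis) of the class II genes (red) and of cell type markers (blue) for Sample 3 over Sample 1 (left) and Sample 2 over Sample 1 (right), with 1 point for each gene and a bar at the median of each list. For Sample 3 over Sample 1 the medians were 0.59 for the class II genes, 1.07 for B cell markers, 0.04 for dendritic cell markers and 0.02 for macrophage markers.

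The genes most like the class II genes were sought among 6895 genes with a mean signal of at least 1000, by the distance of their log2 ratios on days 2 and 139 over day 0 from the medians of the 10 genes, over 3 arrays. The 5 nearest were Casp1, Map4k1, Nlrc5, Pgcp and Rac2. Nlrc5, which encodes the transactivator of MHC class I genes, had signals of 2117, 2062 and 3233. Casp1, the inflammatory caspase, had 1651, 1580 and 2521. With 3 arrays such likeness is a description of these values.

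The arrays shared 1 slide. Probes well above background numbered between 28085 and 30291, and the median coefficient of variation of repeated spots was at most 5.53%. The spike-in controls were dimmer in Sample 3, at 58.8% of Sample 1 by the geometric mean of 8 controls. Scaling used the median of their ratios instead. It raised the median log2 ratio of all genes over Sample 1 to 0.38 and that of the class II genes to 1.04. Such scaling multiplies all genes of an array by 1 factor and cannot change their ratios to each other. Relative to all genes, the class II genes were 0.66 higher with it, as with scaling to the 75th percentile, beside 0.60 after quantile normalization.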

How the data were processed

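Cy3-labeled RNA of 3 spleen samples was hybridized to one-color SurePrint G3 Mouse 8x60K arrays. The authors deposited the scanner intensity of every spot, with background subtracted by Feature Extraction (10.7.1.1 in the file headers, 9.5.1.1 in the submitters' processing notes), and a table of normalized intensity values, used as an alternative. The labels and the methods name different RNA and labeling kits, which was not settled.

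Control and outlier spots were left out, the spots of a probe were averaged, and 55679 probes were quantile normalized, set to at least 1 and log2-transformed. Detected probes (32108) were well above background on at least 1 array. The ratio limits and Z-scores followed the study's methods, which give no formula for the Z-score. No p-value was computed. The number of arrays limits the precision.

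The 10 genes and all lists were chosen with earlier results of these data known. All 10 are named; other genes of the pathway are named where they passed the ratio limit or were not detected, with H2-DMb1 and Casp1 and Nlrc5 among the 5 nearest genes. Alternatives were scaling to the 75th percentile or spike-in controls, normexp correction (offset 50, limma 3.58.1 in R 4.3.3), the deposited values, other floors, ratio limits and Z-scores, and outlier spots kept. Calls were tested on simulated data. Calculations used Python 3.11.15, numpy 2.4.6, pandas 2.3.3 and matplotlib 3.10.9.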

Additional observations from a re-analysis of the deposited data

How the results depend on the processing

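No gene past the ratio limit and no median over the 10 genes changed direction under the alternatives run. The log2 ratios of H2-DMa, H2-DMb2 and H2-Oa for Sample 2 over Sample 1, all within the error of 0, changed sign under some scalings. Of 270 log2 ratios of the 10 genes over 9 alternatives, 248 stayed within the error and 22 moved beyond it. Of the latter, 20 came from scaling to the spike-in controls and 2 from the normexp correction, which gave 1.45 for Ciita in Sample 3 over Sample 2 and -0.99 in Sample 2 over Sample 1. Scaling to the 75th percentile left 1 gene, Ciita, lower in Sample 2 than in Sample 1 in place of 2. Scaling to the spike-in controls gave medians of 1.04 over Sample 1 and 1.31 over Sample 2, and 7 and 9 genes higher by both criteria in place of 1 and 3. It shifted the median of all genes too, to 0.38 and 0.40, and 5.64% and 5.78% of all genes were then higher by both criteria. A ratio limit of 2 or 0.5 left 2 genes higher over Sample 1, 4 higher over Sample 2 and 1 lower in Sample 2 over Sample 1. The share of all genes past that limit was not computed. With 1 SD over all probes in the Z-score, 0 and 1 genes were higher by both criteria over Samples 1 and 2, beside 3.28% and 3.32% of all genes. With a scaled median absolute deviation, 6 and 7 were higher, beside 6.20% and 5.30% of all genes, and 2 were lower in Sample 2 over Sample 1, beside 5.34%. The cause was not tested. The deposited values gave the same counts. No paired analysis was possible because each day has 1 array and the labels give no replicate numbers. Leaving out an array would leave no comparison with its day.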
